A study of Mus musculus with 2 samples.

Results

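Tight junctions of colitis-associated colon cancers (CACs) were examined through 10 genes, which were 8 claudins (*Cldn1*, *Cldn2*, *Cldn3*, *Cldn4*, *Cldn7*, *Cldn8*, *Cldn15* and *Cldn23*), occludin (*Ocln*) and the scaffold gene *Tjp1*. They were taken by symbol from the 32291 genes of a single-cell RNA sequencing (scRNA-Seq) table, and all 10 were found. Their levels were read in the 11 deposited cell types of both libraries. The libraries carried the genotypes *Mir34a_F/F* and *Mir34a_Mye_KO*. Both genotypes had the floxed *Mir34a* allele, and in *Mir34a_Mye_KO* mice LysM-Cre, which is active in cells of the myeloid lineage, was meant to delete it. Mice of either genotype were 6 to 10 weeks old at the start and received 2 injections of azoxymethane (AOM, a colon carcinogen) at 10 mg/kg. Dextran sodium sulfate (DSS, which damages the colon epithelium) was given in the drinking water for 3 periods of 5 days, at 2.5% in the first and second period and at 2% in the last. Regular water followed for 16 days after each of the first and second periods, and tumors were taken on day 110 after the first AOM injection. For each genotype, 6 to 8 tumors of 3 mice were pooled into 1 library, and the table does not assign cells to mice. No spread between mice could therefore be estimated, and no test between the libraries was made.

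Claudins are multi-pass membrane proteins that line up between neighbouring epithelial cells and set what passes between them. *Cldn2* and *Cldn15* form channels for small cations, whereas *Cldn1*, *Cldn3*, *Cldn4*, *Cldn7* and *Cldn8* are mostly described as tightening the seal. *Ocln* belongs to the MARVEL family of junction proteins, and *Tjp1* encodes the zonula occludens scaffold that ties the membrane proteins to actin. In the colon, claudins differ along the crypt, from the stem cells at its base to the absorptive cells at its surface.

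The table held 20312 and 18571 cells of the libraries labelled *Mir34a_F/F* and *Mir34a_Mye_KO*, and values are given in this order throughout. Median depth was 4787 and 7716 unique molecular identifiers (UMIs, counts of captured molecules) per cell, and 96 cell barcodes occurred in both libraries. The pri-miR-34a feature had 133 and 462 UMIs in macrophages. Its log2 ratio was 1.03 (95% interval, for counting error only, as all intervals here, 0.74 to 1.32), so it was higher under the label of the deletion. The libraries are named by their labels only. Whether this feature lies inside the deleted part is not given in the sources used here, so it was not shown to check the deletion. The markers of each annotated cell type were highest in that type for 10 of 11 types, and for basophils 2 of 3 markers were. Epithelial cells numbered 11614 and 9865, with median depths of 5315.5 and 6623 UMIs. They also differed in quality, because the median mitochondrial share was 11.2% and 18.4% of UMIs and because 2.93% and 29.7% of them had at least 1% immunoglobulin UMIs.

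Promoter sequences of 5 members are shown because *Cldn3*, *Cldn4*, *Cldn7* and *Ocln* had their highest level in epithelial cells in both libraries, while *Cldn1* did not. They are RefSeq windows on GRCm38.p6, from 250 bases before to 50 bases after a start site, 5′ to 3′. Capitals mark CAGGTG and its reverse complement CACCTG, the E-box bound by the Snail and Zeb repressors of epithelial genes. Where a gene had 2 windows, the one with more matches is shown.
Cldn3, chr5:134985964-134986263, plus strand: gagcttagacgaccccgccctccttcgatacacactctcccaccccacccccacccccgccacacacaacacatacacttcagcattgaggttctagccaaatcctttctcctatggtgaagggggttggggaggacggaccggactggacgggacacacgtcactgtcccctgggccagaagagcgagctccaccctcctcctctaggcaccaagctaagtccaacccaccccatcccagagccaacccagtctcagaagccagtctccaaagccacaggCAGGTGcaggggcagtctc
Cldn4, chr5:134946885-134947184, minus strand: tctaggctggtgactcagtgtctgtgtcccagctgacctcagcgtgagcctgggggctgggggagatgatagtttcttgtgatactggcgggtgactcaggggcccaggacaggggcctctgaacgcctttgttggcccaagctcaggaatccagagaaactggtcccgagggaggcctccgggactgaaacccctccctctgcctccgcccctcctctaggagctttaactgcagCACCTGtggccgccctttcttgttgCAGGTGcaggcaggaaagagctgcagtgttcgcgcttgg
Cldn7, chr11:69965171-69965470, plus strand: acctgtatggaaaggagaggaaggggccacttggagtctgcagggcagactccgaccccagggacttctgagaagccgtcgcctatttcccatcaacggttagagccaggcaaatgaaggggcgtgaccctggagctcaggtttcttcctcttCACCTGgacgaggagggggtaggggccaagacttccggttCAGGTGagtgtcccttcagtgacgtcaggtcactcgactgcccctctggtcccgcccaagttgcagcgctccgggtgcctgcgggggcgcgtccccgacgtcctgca
Ocln, chr13:100552449-100552748, minus strand: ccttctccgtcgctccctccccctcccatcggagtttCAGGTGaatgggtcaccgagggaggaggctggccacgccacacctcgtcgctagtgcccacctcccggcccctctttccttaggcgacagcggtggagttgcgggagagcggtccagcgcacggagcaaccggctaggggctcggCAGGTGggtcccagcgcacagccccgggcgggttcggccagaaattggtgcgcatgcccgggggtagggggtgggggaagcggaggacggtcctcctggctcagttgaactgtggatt
Cldn1, chr16:26371790-26372089, minus strand: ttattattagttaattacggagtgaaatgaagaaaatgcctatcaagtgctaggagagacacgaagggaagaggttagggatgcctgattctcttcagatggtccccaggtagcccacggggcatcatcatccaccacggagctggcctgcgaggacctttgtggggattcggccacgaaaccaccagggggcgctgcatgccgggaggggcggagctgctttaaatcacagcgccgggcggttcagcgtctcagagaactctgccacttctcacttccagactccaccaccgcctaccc
Of the 8 members with a window, 4 had a match in at least 1 window (*Cldn3*, *Cldn4*, *Cldn7* and *Ocln*), and windows of *Cldn1*, *Cldn2*, *Cldn15* and *Tjp1* had none. The matches of *Cldn4* began at -14 and 12 from the start site, those of *Cldn7* at -97 and -57, those of *Ocln* at -213 and -68, and that of *Cldn3* at 32. Among all genes with a window, 22.6% held the motif, so a match was common in general. The set of windows used here held none for *Cldn8* and *Cldn23*, so these genes were not searched.

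The mature miR-34a-5p, whose gene the Cre was meant to delete, is printed with its seed in capitals, since transcripts paired by this seed are candidate targets.
miR-34a-5p, chr4:150068473-150068494, plus strand: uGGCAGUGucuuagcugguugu
The letters CACTGCC or ACTGCCA, which pair with the seed, were searched on the transcript strand in annotated 3′ UTRs (GENCODE M21). They occurred in 0 of the 10 members and in 20.4% of 20964 genes. This describes these letters in these UTRs only.

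*Cldn7* had the highest UMI level of the members in epithelial cells, followed by *Cldn4* and *Cldn3*. Levels are UMIs summed over the cells of a type per 10000 summed UMIs. They count 3′ ends and are not divided by transcript length, so ranks between genes are ranks of captured UMIs. *Cldn7*, a claudin of the basolateral membrane that binds *Epcam*, had 15.7 and 10.5 UMIs per 10000 in epithelial cells and was detected in 92.3% and 87.4% of them. *Cldn4*, a barrier claudin, had 6.15 and 3.94. *Cldn3*, another sealing claudin, had 3.32 and 2.79. The other members were lower. *Tjp1* had 1.54 and 1.41 per 10000, and *Ocln* had 1.25 and 1.01. *Cldn23*, a claudin of surface colonocytes, had 0.512 and 0.441. The channel claudin *Cldn2* had 0.269 and 0.164. *Cldn8*, which is typical of the distal colon, had 0.0894 and 0.0572, and *Cldn15*, a channel claudin best known from the small intestine, had 0.0388 and 0.035. *Cldn1* was nearly undetected in epithelial cells, with 32 and 18 UMIs in all and a level of 0.00339 and 0.00203. Counting intervals of neighbours in this order did not overlap in either library.

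**Figure D1:**
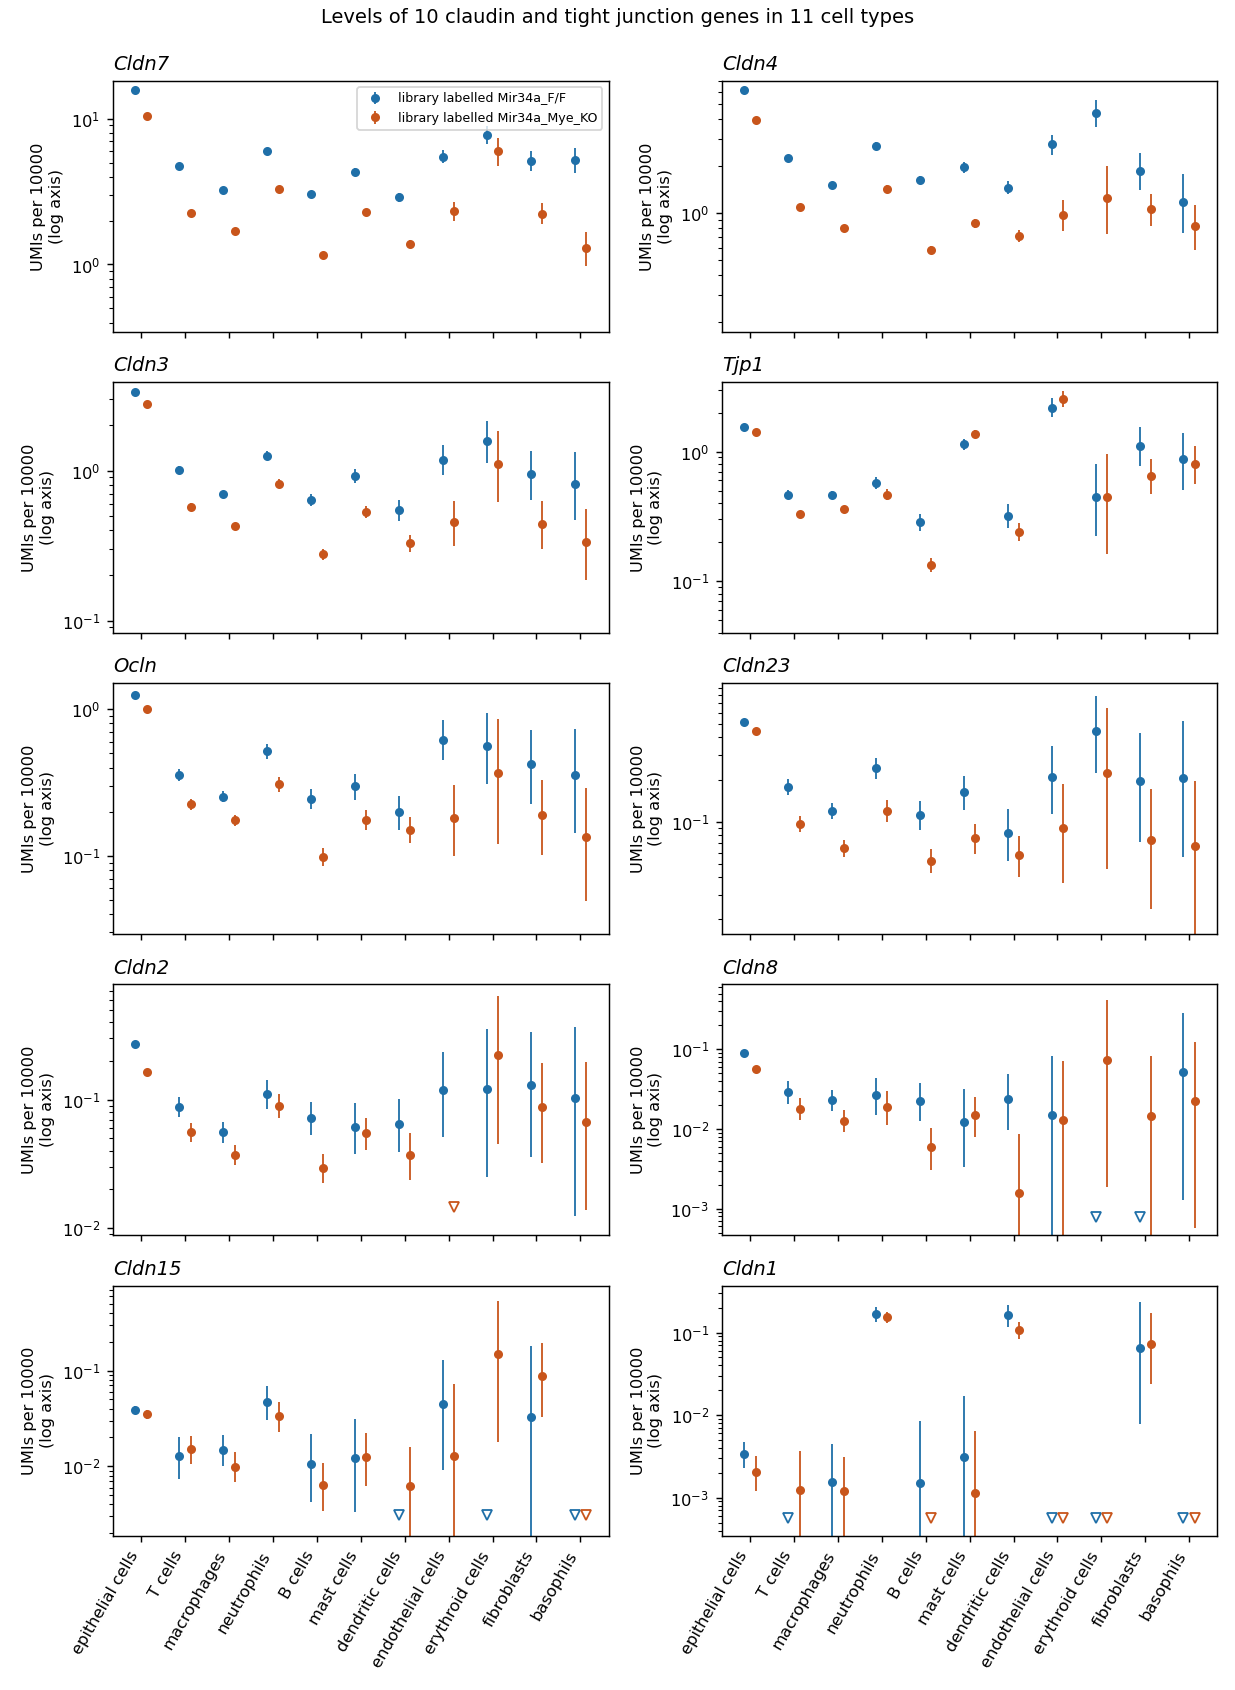
UMIs per 10000 on a log axis for each member, by the 11 deposited cell types and the 2 libraries. Points are levels, bars are 95% exact Poisson intervals for counting error only, and open triangles at the lower edge are levels of 0. Cldn7, Cldn4, Cldn3, Cldn23 and Ocln are highest in epithelial cells of both libraries, Cldn1 in neutrophils and Tjp1 in endothelial cells.

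Epithelial mRNAs were found in every other cell type, so a claudin read in an immune cell needed a scale. *Cldn7* had a UMI in 71.9% and 74.6% of T cells, whose median depths were 3548 and 8043 UMIs. With each cell thinned to 1000 UMIs, the shares were 35.9% and 20.1% of T cells against 69.1% and 53.2% of epithelial cells. Thinning left out 627 and 160 epithelial and 84 and 7 T cells as too shallow. As the scale, 8 epithelial markers (*Epcam*, *Cdh1*, *Krt8*, *Krt18*, *Krt19*, *Lgals4*, *Vil1* and *Cdx1*) were read in each type as a percentage of their epithelial level. This percentage was 26.7% to 37.4% and 19.4% to 27.2% in T cells, and 37.8% to 50.5% and 26.4% to 38.5% in neutrophils. It was largest in erythroid cells, at 35.2% to 80.4% and 33.3% to 88.8%, and none of the 8 markers was at 0 in any type. A member was counted as above this range where the lower 95% limit of its own percentage passed the highest marker.

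By this count, 91 and 86 of the 100 values of the members in other cell types did not pass the markers. No share of all genes is given for this rule, so the counts do not set the members apart from other genes. *Cldn3*, *Cldn7*, *Cldn8*, *Cldn23* and *Ocln* never did, in any of the 10 other types of either library. *Cldn7* in T cells, for example, had a level of 4.71 and 2.26, which lies within the marker range. Values above the range came from *Cldn1* (neutrophils, dendritic cells and fibroblasts), *Tjp1* (endothelial cells, mast cells, fibroblasts and macrophages) and *Cldn15* (neutrophils) in both libraries. In the library labelled *Mir34a_Mye_KO* they also came from *Cldn2* in T cells, neutrophils and mast cells and from *Cldn4* in B cells, and *Cldn15* was above it in 1 library each in macrophages, T cells and fibroblasts. The *Cldn4* level there was 14.7% of the epithelial one, against at most 13.8% for the markers. Values on few UMIs could hardly pass by this rule, so not passing does not place them within the range. *Cldn15* in erythroid cells of the library labelled *Mir34a_Mye_KO*, for example, had 421% (50.8% to 1535%) on 2 UMIs and did not pass. *Cldn8* had at most 1 UMI in each library in endothelial cells, erythroid cells, fibroblasts and basophils. The part of carried-over RNA in single values was not tested.

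**Figure D2:**
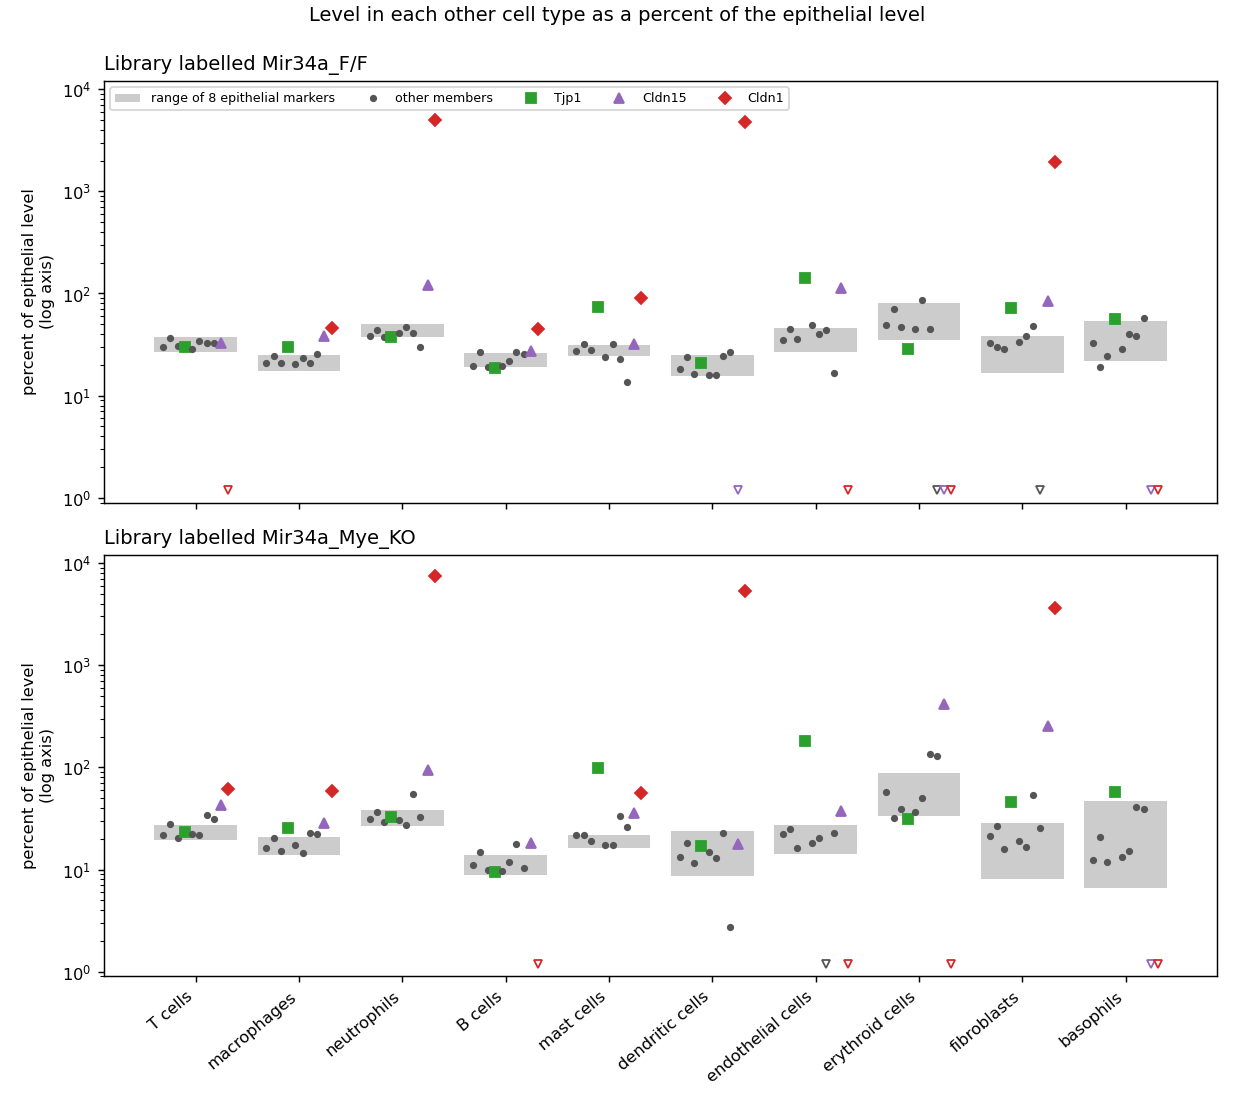
Level of each member in the 10 other cell types as a percentage of its epithelial level, on a log axis, with 1 panel for each library. Grey boxes span the 8 epithelial markers, coloured symbols are Cldn1, Tjp1 and Cldn15, dark points the other members, and open triangles values of 0. Cldn1 lies between 1927% and 7527% in neutrophils, dendritic cells and fibroblasts, where no marker passes 50.5%.

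An epithelial level at least 2 times that of every other type was reached by 4 members in the library labelled *Mir34a_F/F* (*Cldn2*, *Cldn3*, *Cldn7* and *Ocln*), where 1.69% of the 12998 genes with at least 0.1 per 10000 in epithelial cells or in the highest other type reached it. In the library labelled *Mir34a_Mye_KO*, 3 members reached it (*Cldn3*, *Cldn4* and *Ocln*), against 2.8% of 12783 such genes. The small groups decided these counts. Erythroid cells, of which there were 106 and 30, held the second highest *Cldn7* level, 7.75 and 5.97. Over the 8 types with at least 100 cells in each library, an alternative chosen after seeing the data, 7 and 6 members reached it, against 4.61% of 11948 and 6.54% of 11827 such genes. *Cldn8*, which is among these members in both libraries, lay below that level filter. *Cldn1*, *Cldn15* and *Tjp1* did not in either library.

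*Cldn1* was an mRNA of neutrophils and dendritic cells in these tumors. In neutrophils it had 94 and 147 UMIs, a level of 0.168 (0.136 to 0.206) and 0.153 (0.129 to 0.18), and was seen in 50 of 1053 and 72 of 1077 cells. In dendritic cells it had 47 and 69 UMIs, a level of 0.161 (0.118 to 0.214) and 0.107 (0.0832 to 0.135), in 21 of 347 and 33 of 431 cells. These levels were 49.6 and 75.3 times the epithelial one in neutrophils and 47.6 and 52.7 times in dendritic cells. T cells, which should lack it, had 0 of 3088 and 3 of 2649 cells with a UMI, and macrophages had 3 and 4 UMIs in all. With cells thinned to 1000 UMIs, 1.46% and 1.3% of neutrophils had a *Cldn1* UMI, against 0% and 0.0379% of T cells. In dendritic cells these shares were 0.867% (0.179% to 2.51%) and 0.464% (0.0563% to 1.67%), from 3 and 2 cells only. The 0 in T cells allows a level of up to 0.00224 per 10000 when set at 3 UMIs. Median depth was 4107 and 7330 UMIs in neutrophils and 6768 and 13564 in dendritic cells. In fibroblasts, 2 and 5 *Cldn1* UMIs gave 0.0653 and 0.0736 per 10000 from 57 and 60 cells.

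Within dendritic cells, *Cldn1* was concentrated in those with a UMI of *Xcr1*, the chemokine receptor of the cross-presenting conventional subset. These 50 and 69 cells held 36 and 52 of the *Cldn1* UMIs, at 0.52 (0.364 to 0.72) and 0.315 (0.235 to 0.413) per 10000. The UMIs came from 11 and 19 of these cells, so most cells with *Xcr1* had none. Cells with a UMI of *Ccr7*, the receptor of migrating dendritic cells, and none of *Xcr1* had 0.0559 and 0.0368. Cells with neither had 0.0412 and 0.0337, on 4 and 7 *Cldn1* UMIs. The ratio of cells with *Xcr1* to cells with neither was 12.6 (4.52 to 48.8) and 9.36 (4.24 to 24.4). *Epcam*, as a measure of epithelial RNA, had a ratio of 1 (0.824 to 1.22) and 0.774 (0.66 to 0.905) between the same cells. *S100a8*, an abundant neutrophil mRNA, was lower in the cells with *Xcr1*, at 0.996 and 0.758 per 10000 against 2.09 and 4.05 in those with neither. Cells with an *Xcr1* UMI were also deeper, with median depths of 12796 and 26203 UMIs against 5421.5 and 10930.

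In neutrophils, cells with a UMI of *Camp* or *Ltf*, granule genes of less mature neutrophils that were chosen after values had been seen, had more *Cldn1*. Their levels were 0.3 (0.217 to 0.406) and 0.256 (0.189 to 0.338), against 0.124 (0.0927 to 0.163) and 0.127 (0.103 to 0.155) in the other neutrophils. The ratio was 2.42 (1.57 to 3.71) and 2.01 (1.4 to 2.86), while that of *Epcam* was 1.04 and 1.08. Median depths were 5988 and 10648 UMIs with and 3781 and 6930 without such a UMI. *Cldn1* was therefore present on both sides of this split, in 20 of 189 and 20 of 155 cells with such a UMI and in 30 of 864 and 52 of 922 cells without.

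**Figure D3:**
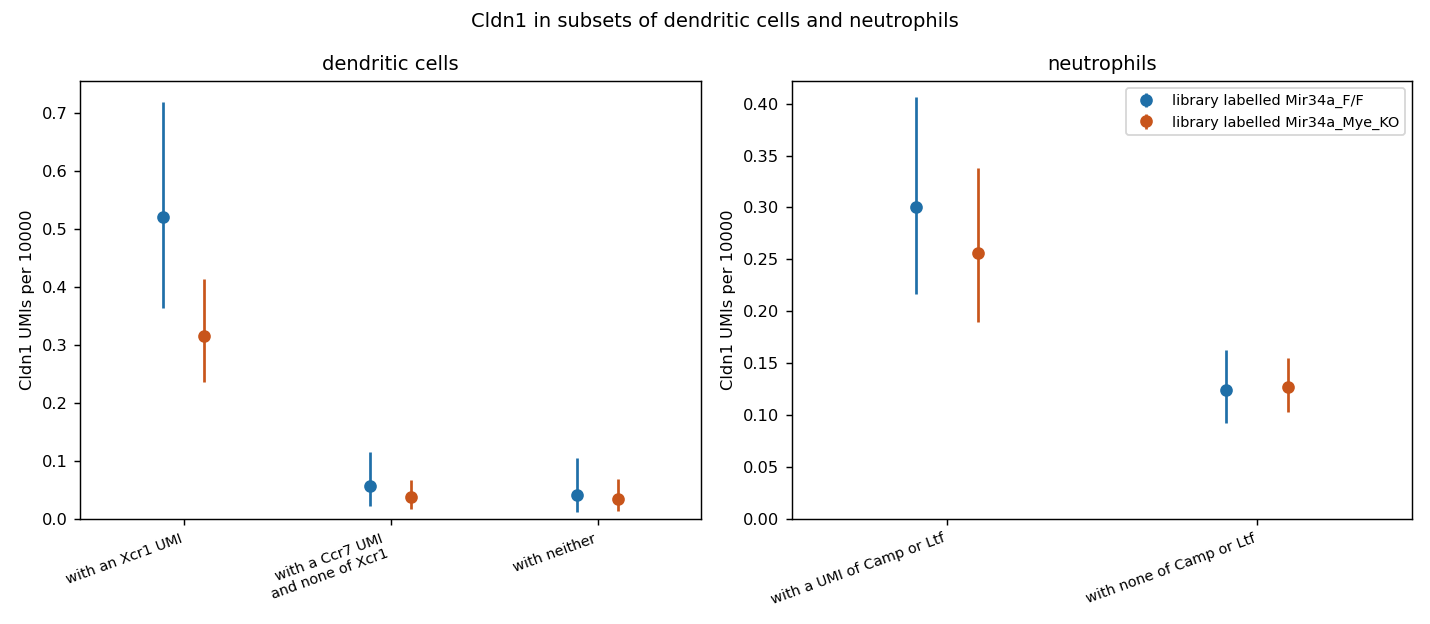
Cldn1 UMIs per 10000 in dendritic cells split by UMIs of Xcr1 and Ccr7 and in neutrophils split by UMIs of Camp or Ltf, for both libraries. Points are levels and bars 95% exact Poisson intervals for counting error only. Dendritic cells with Xcr1 lie at 0.52 and 0.315, above both other groups of dendritic cells in either library.

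*Tjp1* was highest in endothelial cells, which also build tight junctions. Its level there was 2.19 (148 UMIs) and 2.54 (196 UMIs), or 1.42 and 1.8 times the epithelial level. Mast cells came next outside the epithelium, with 1.14 (371 UMIs) and 1.37 (1208 UMIs). This was 74.2% and 97.6% of the epithelial level, where the 8 epithelial markers reached at most 31.5% and 22%. Fibroblasts (1.11 and 0.647) and macrophages (0.462 and 0.359) were above the marker range in both libraries as well. T cells (0.464 and 0.327), neutrophils (0.571 and 0.465), B cells and dendritic cells were not. In the library labelled *Mir34a_F/F* the order of mast cells (1.03 to 1.26) and fibroblasts (0.769 to 1.55) is open, since these intervals overlapped. As means over cells, fibroblasts were higher there, at 1.46 against 1.28. Mast cells were ranked into 4 equal groups by *Mcpt1* and *Mcpt2*, proteases of mucosal mast cells. From the lowest to the highest group, *Epcam* fell to 0.254 and 0.27 times its level, while *Tjp1* went from 1.34 to 1.07 and from 1.21 to 1.44 per 10000. The *Tjp1* ratios were 0.796 (0.587 to 1.09) and 1.2 (0.986 to 1.46), and both intervals held 1. Median depths were 1685 and 3712 UMIs in the lowest and 7023 and 15569 in the highest group. *Epcam* had 338 and 491 UMIs in the lowest and 285 and 435 in the highest group. *Mcpt1* rose from 7 to 808 and from 10.35 to 745 per 10000, so depth and protease level changed together. Whether either bears on *Epcam* or *Tjp1* was not tested. The endothelial mRNA *Pecam1*, which mast cells also carry, was 0.847 and 1.34 per 10000 in mast cells, against 5.75 and 7.7 in endothelial cells.

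*Cldn15* rested on few UMIs outside the epithelium. In neutrophils, 26 and 32 UMIs gave 0.0465 (0.0304 to 0.0682) and 0.0333 (0.0228 to 0.047) per 10000, or 120% and 95.1% of the epithelial level. In fibroblasts, 1 and 6 UMIs gave 0.0327 and 0.0883, and in macrophages 29 and 33 UMIs gave 0.0149 and 0.00993. The neutrophil UMIs came from 22 of 1053 and 29 of 1077 cells. Neutrophils with a UMI of *Camp* or *Ltf* had 0.0644 and 0.0731 per 10000 and those without 0.0406 and 0.0234, from 9 and 14 against 17 and 18 UMIs.

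Another 43 tight junction genes of the table were listed beside the members, namely further claudins, tricellular proteins, scaffolds, adhesion and polarity proteins and partners of claudins. Among the highest in epithelial cells were *Epcam* (16.6 and 13.9), *Cdh1* (5.96 and 5.17), *F11r* (3.23 and 2.73) and *Magi1* (2.53 and 3.13). *Epcam* binds *Cldn7*, *Cdh1* is the cadherin of the neighbouring adherens junction, *F11r* is an adhesion molecule, and *Magi1* is a scaffold. Endothelial cells had a set of their own. *Cldn5*, the classical endothelial claudin, had 47 and 43 UMIs there, at 0.694 and 0.557 against 0.0291 and 0.0337 per 10000 in epithelial cells. *Esam*, an endothelial adhesion molecule, had 1.6 and 2.22 against 0.00985 and 0.00925. *Jam2*, of the same family, had 0.591 and 1.08 against 0.0213 and 0.0173. *Magi1*, at 6.41 and 9.05, was also highest in endothelial cells, and so was *Ildr2*, a tricellular junction gene, with 16 and 13 UMIs. In fibroblasts the polarity gene *Pard3* was highest, with 1.86 and 1.72 against 1.2 and 1.19 in epithelial cells. The scaffold gene *Mpdz* was highest in fibroblasts of the one library, 0.522, and in endothelial cells of the other, 0.531. Genes that were highest outside epithelial cells on 60 UMIs or fewer in 1 library only were *Cgnl1*, *Cldn12* and *Prkcz*. *Jam3* was highest in endothelial cells of the library labelled *Mir34a_F/F* (7 UMIs) and in fibroblasts of the other (21 UMIs). The low claudins *Cldn6*, *Cldn10*, *Cldn11*, *Cldn13*, *Cldn14*, *Cldn16*, *Cldn18*, *Cldn19* and *Cldn20* were highest outside the epithelium on 16 UMIs or fewer in at least 1 library, with mast cells leading for *Cldn20* in both (3 and 9 UMIs).

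In epithelial cells all 10 members had a lower value in the library labelled *Mir34a_Mye_KO*, as did most genes, although the counting intervals of *Cldn1* and *Cldn15* held a log2 ratio of 0. Across 9182 genes with at least 0.1 UMIs per 10000 in either library, the median log2 ratio of the library labelled *Mir34a_Mye_KO* to the one labelled *Mir34a_F/F* was -0.23. A difference of at least 1.2-fold was seen downward in 46.2% and upward in 5.41% of these genes. Of the 7 members at this level, 4 were lower by at least 1.2-fold (*Cldn2*, *Cldn4*, *Cldn7* and *Ocln*) and 0 higher, with a median of -0.32. The 4 of 7 is read against the 46.2% of all genes. Genotype and library cannot be told apart.

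Among the 7 members past the level filter, the channel claudin *Cldn2* and the sealing claudins *Cldn4* and *Cldn7* had the lowest ratios. *Cldn2* had a log2 ratio of -0.71 (-0.81 to -0.62) and *Cldn4* of -0.65 (-0.66 to -0.63), at percentiles 7.79 and 10.9 of all genes tested. *Cldn7* had -0.58 (-0.59 to -0.57), at percentile 14.5. *Ocln* followed with -0.32 (-0.36 to -0.28), then *Cldn3* and *Cldn23*, at -0.25 and -0.22 beside the median of all genes of -0.23, and *Tjp1* at -0.13 (-0.16 to -0.09). Below the level filter, *Cldn8* had -0.64 (-0.81 to -0.48), close to *Cldn4*, and *Cldn1* had -0.74 on 32 and 18 UMIs, with an interval that held 0 (-1.66 to 0.14). *Cldn15* had -0.15, and its interval held 0 as well (-0.37 to 0.07). Among the epithelial markers *Krt8* and *Krt18*, keratins of simple epithelia, lay near *Cldn4* and *Cldn7*, at -0.67 and -0.53, while *Epcam* was at -0.25.

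The sign of a ratio depends on the total it is scaled by. When genes of immunoglobulins, mitochondria and those like ribosomal RNA were taken out of the totals, the log2 ratio of every gene moved up by the same 0.32, so that the order of the genes and their distances were as before. The median of all genes was then 0.08, with 14.7% of genes lower and 26% higher by at least 1.2-fold. *Cldn3* (0.07), *Cldn15* (0.17), *Cldn23* (0.10) and *Tjp1* (0.19) were above 0 on this scale, and 5 of the 7 members were below the median of all genes and 2 above it on either scale. In cells with at least 500 expressed genes and under 10% mitochondrial UMIs the median of all genes was 0.02, with 17.6% of genes lower and 17.7% higher by at least 1.2-fold. All 7 members lay below this median, and 2 of the 7 were lower by at least 1.2-fold, *Cldn7* (-0.78) and *Cldn2* (-0.42). *Cldn4*, at -0.23, and *Ocln* no longer were.

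**Figure D4:**
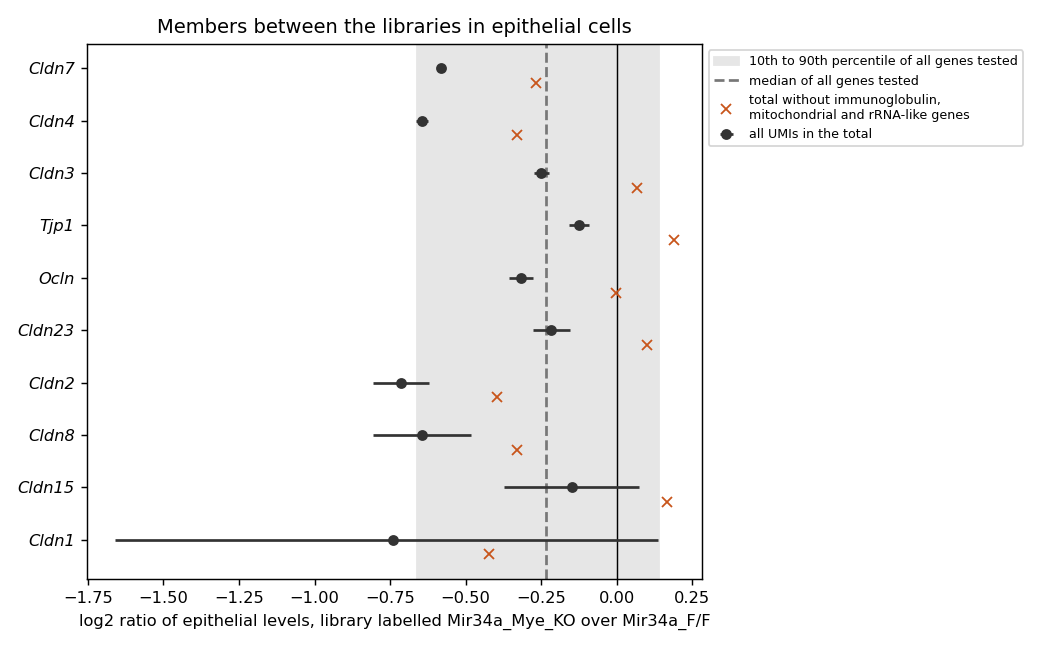
Log2 ratio of epithelial levels, library labelled Mir34a_Mye_KO over the one labelled Mir34a_F/F, for the 10 members. Points with 95% counting intervals use all UMIs in the total, crosses use totals reduced by genes of immunoglobulins, mitochondria and those like ribosomal RNA, and the grey band spans the 10th to 90th percentile of 9182 genes around their median of -0.23. Cldn1 and Cldn2 lie below the band, and Cldn3, Cldn15, Cldn23 and Tjp1 change sign between point and cross.

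Of the 22 other tight junction genes that passed the level filter, 7 were lower by at least 1.2-fold and 1 was higher, with a median log2 ratio of -0.14. These counts stand beside 46.2% of all genes tested that were lower and 5.41% that were higher, so they do not set these genes apart. The lower ones included *Crb3*, a polarity protein (-0.56), *Lsr* and *Marveld2* of the tricellular junction (-0.38 and -0.27), *Cldn12* (-0.35), *Cxadr*, an adhesion protein (-0.32), and the polarity kinase *Prkci* (-0.31). The higher one was *Magi1*, at 0.3 (0.28 to 0.33). The scaffold gene *Tjp3* had 0.06.

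Outside the epithelium *Cldn7* was lower in the library labelled *Mir34a_Mye_KO* in each of the 10 other types. Its log2 ratio was -1.06 in T cells, -0.95 in macrophages, -0.87 in neutrophils and -0.92 in mast cells, and in erythroid cells it was -0.38, with an interval that held 0 (-0.77 to 0.00414). The 8 epithelial markers were lower in the same cells, where their summed level went from 30.8 to 16.5 per 10000 in T cells, from 21.2 to 12.5 in macrophages, from 42.8 to 24.2 in neutrophils and from 28.1 to 14.7 in mast cells. *Cldn7* did not pass the range of these markers in any of the 10 types. *Tjp1* differed in mast cells, where it was higher in the library labelled *Mir34a_Mye_KO*, at 0.27 (0.1 to 0.44), and in endothelial cells, where the interval held 0 (-0.1 to 0.53). No median of all genes is given for these types, so whether this is particular to *Tjp1* was not tested. Median depth in mast cells was 2951.5 and 8456 UMIs. *Cldn1* had -0.14 (-0.52 to 0.25) in neutrophils and -0.59 (-1.15 to -0.02) in dendritic cells.

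Epithelial cells of at least 1000 UMIs were then ordered within each library by gene lists that hold no member, to follow the claudins along cell states. The lists were for differentiated colonocytes (*Krt20*, *Car4*, *Slc26a3*, *Aqp8*, *Guca2a*, *Clca4a*, *Muc3a* and *Ceacam20*) and stem cells (*Lgr5*, *Ascl2*, *Axin2*, *Smoc2*, *Rnf43*, *Nkd1*, *Notum* and *Znrf3*), with goblet, regenerative and cycling lists beside them. Cells were cut into 4 equal groups by the summed level of a list. On the differentiated list 38.6% and 42.3% of cells were at 0, so its lowest group is a random part of those.

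*Cldn7*, *Cldn3* and *Cldn23* rose with the differentiated list at every step in both libraries. *Cldn7* went from 10.7 through 12.3 and 16.5 to 23.4 per 10000, and from 5.95 through 7.03 and 9.88 to 15.8. *Cldn3* went from 2.6 to 4.47 and from 1.81 to 4.12, and *Cldn23* from 0.327 to 0.87 and from 0.237 to 0.761. The log2 ratio of the highest to the lowest group was 1.13 and 1.41 for *Cldn7*, 0.78 and 1.19 for *Cldn3* and 1.41 and 1.68 for *Cldn23*. *Cldn8* was higher at the end as well, at 1.87 (1.52 to 2.23) and 1.26 (0.82 to 1.72), and *Ocln* ended higher by less, at 0.4 and 0.71, with no rise at every step in either library. The median of all genes along this list was -0.31 in either library, and 24% and 25.8% of genes were higher by at least 1.2-fold. With cells thinned to 1000 UMIs before ranking, the ratios of these members were smaller, at 0.57 and 0.7 for *Cldn7*, 0.5 and 0.58 for *Cldn3*, 1.22 and 0.84 for *Cldn23*, 0.5 and 0.42 for *Cldn8* and 0.13 and 0.45 for *Ocln*. Median depth was 3794 and 4074 UMIs in the lowest and 5833.5 and 9976 in the highest group. Cells with at least 1% immunoglobulin UMIs made up 1.2% and 44.4% of the lowest and 0.765% and 20.7% of the highest group.

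Along the stem list the same claudins ran the other way. *Cldn7* went from 22.5 to 9.42 and from 14.3 to 5.99, *Cldn3* from 4.39 to 2.5 and from 3.72 to 1.95, and *Cldn23* from 0.734 to 0.348 and from 0.605 to 0.276. Their log2 ratios were -1.26 and -1.25, -0.81 and -0.93, and -1.07 and -1.13, while the median of all genes was 0.39 and 0.61. Of all genes, 21.6% and 17.1% were lower along this list by at least 1.2-fold. *Cldn8* was lower too, at -1.59 and -1.39, as was *Ocln*, at -0.26 and -0.43. Thinned cells gave -0.63 and -0.57 for *Cldn7*, -0.6 and -0.33 for *Cldn3* and -0.69 and -0.46 for *Cldn23*. *Cldn4* had no steady order along either list. It had -0.17 and 0.21 along the differentiated list and 0.24 and 0.18 along the stem list, with levels from 5.32 to 7.01 and from 3.44 to 4.42 over all these groups. These directions depended on the setting, since thinned cells gave 0.1 in place of -0.17, and the value of 0.18 became -0.41 with the filter of 500 genes and 10% mitochondrial UMIs and -0.15 with the reduced totals. *Tjp1* had 0.03 (-0.05 to 0.1) and 0.55 (0.47 to 0.64) along the differentiated list and 0.08 and -0.08 along the stem list, where its direction changed with the setting in either library. *Cldn2* differed between the libraries, with 0.41 (0.23 to 0.59) and -0.84 (-1.08 to -0.6) along the differentiated list and 0.07 (-0.12 to 0.26) and 1.46 (1.21 to 1.72) along the stem list, and its direction also changed with the setting. *Cldn15*, on 40 to 149 UMIs a group, had 0.81 (0.32 to 1.33) and -0.36 (-0.91 to 0.2) along the differentiated list and -1.10 (-1.69 to -0.54) and 0.48 (-0.06 to 1.04) along the stem list. With the cell filter both libraries had the same direction for it, at 1.62 and 1.69 along the differentiated and -1.96 and -1.54 along the stem list.

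The channel claudins *Cldn2* and *Cldn15* stood apart from the sealing claudins in the goblet order (*Muc2*, *Fcgbp*, *Clca1*, *Spink4*, *Agr2*, *Tff3* and *Zg16*). *Cldn2* rose from 0.155 through 0.209 and 0.253 to 0.667 and from 0.117 through 0.147 and 0.163 to 0.379. *Cldn15* rose from 0.0198 to 0.107 and from 0.0225 to 0.0805. Their log2 ratios were 2.11 (1.95 to 2.27) and 1.69 (1.49 to 1.9) for *Cldn2* and 2.44 (2.02 to 2.87) and 1.84 (1.38 to 2.3) for *Cldn15*. *Cldn7* had -0.28 and -0.54 in the same order, and the median of all genes was -0.12 and -0.04. Of all genes, 15.5% and 19% were higher along this list by at least 1.2-fold, and 31.3% and 24.4% were lower. *Cldn3* had -0.14 and -0.35, a fall of at least 1.2-fold in the library labelled *Mir34a_Mye_KO* only. *Cldn4* and *Cldn8* changed little, with 0.004 and 0.16 and with -0.03 and -0.03. *Cldn1* had 0.11 and 1.44 on few UMIs, with intervals that held 0. The highest goblet group was shallow, with median depths of 3135.5 and 2394 UMIs against 10673 and 13165 in the lowest. In the highest group, 3.93% and 68.7% of cells had at least 1% immunoglobulin UMIs. Whether these features bear on *Cldn2* and *Cldn15* was not tested.

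Along the regenerative list (*Ly6a*, *Ly6d*, *Anxa1*, *Anxa8*, *Clu* and *Il1rn* among others), which marks epithelium under repair, the channel claudins went down and most others up. *Cldn2* fell from 0.417 to 0.144 and from 0.229 to 0.103, and *Cldn15* ended at 0.0189 and 0.0169 from 0.0509 and 0.0411. *Cldn7* rose from 9.57 to 23.9 and from 5.14 to 16.2. *Cldn4*, which had no steady order along the differentiated and stem lists, rose at every step here, from 5.47 to 6.68 and from 2.66 to 5.06. *Tjp1* had a log2 ratio of 0.3 and 0.72 between the highest and lowest group, where the median of all genes was -0.28 and -0.22. Of all genes, 24.7% and 27.5% were higher along this list by at least 1.2-fold, and 50.7% and 47.7% were lower. Median depth was 4992 and 5852 UMIs in the lowest and 7869 and 10240 in the highest regenerative group. Whether depth bears on these orders was not tested. Along the cycling list (*Mki67*, *Top2a*, *Cenpf*, *Birc5*, *Ube2c*, *Cdk1* and *Ccnb1*), *Cldn23* fell at every step, from 0.584 to 0.382 and from 0.527 to 0.242. The median of all genes was 0.03 and 0.08 along this list, on which 44% and 42.9% of cells were at 0, so that its lowest group is a random part of those. Of all genes, 28.3% and 34% were higher along the cycling list by at least 1.2-fold, and 21.7% and 19.6% were lower. *Cldn4* had -0.46 and -0.44 there, and *Cldn2* had 0.59 (0.41 to 0.77) and 0.48 (0.26 to 0.7).

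**Figure D5:**
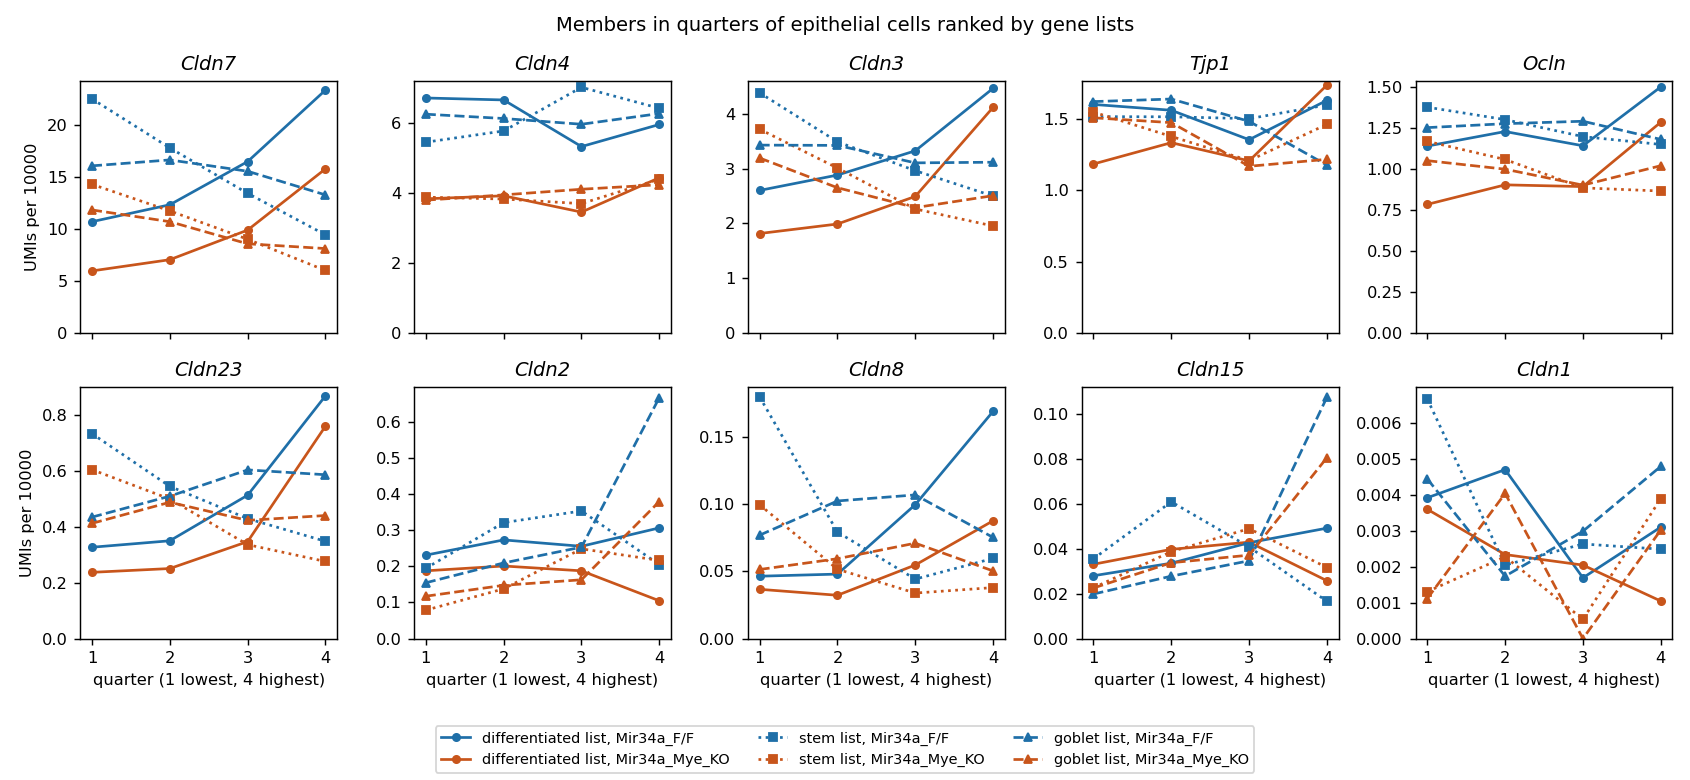
Level of each member in UMIs per 10000 over 4 groups of epithelial cells ranked by the differentiated (circles), stem (squares) and goblet (triangles) lists, in both libraries. Lines join the groups of 1 list and library, and Cldn1 rests on 32 and 18 UMIs. Cldn7, Cldn3, Cldn23 and Cldn8 end higher along the differentiated and lower along the stem list, while Cldn2 and Cldn15 end highest along the goblet list.

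Inside the groups of cells, most members were again lower in the library labelled *Mir34a_Mye_KO*, as were most genes. *Cldn3*, *Cldn4*, *Cldn7*, *Cldn23* and *Ocln* had a log2 ratio below 0, with an interval that did not hold 0, in each of the 12 groups of the differentiated, stem and regenerative lists. The median of all genes ran from -0.30 to -0.09 over these 12 groups. Of all genes, 28.2% to 54.3% were lower by at least 1.2-fold in a group. The share of all genes with an interval below 0 is not given. The lists cut the same cells, so the 12 groups are not separate observations. These ratios use all UMIs in the total, on which their sign depends. *Cldn4* and *Cldn7* lay below the median of all genes in each of the 12 groups, whereas *Cldn3*, *Cldn23* and *Ocln* did not. In the highest regenerative group, for example, these 3 had -0.10, -0.15 and -0.14 against a median of -0.20. Over the 4 groups of the differentiated list, from the lowest to the highest, *Cldn7* had log2 ratios of -0.85, -0.81, -0.74 and -0.57, and *Cldn4* had -0.81, -0.77, -0.63 and -0.43. Over those of the stem list, in the same order, *Cldn7* had -0.66, -0.60, -0.58 and -0.65, and *Cldn4* had -0.49, -0.59, -0.93 and -0.55. Over all 12 groups *Ocln* lay between -0.64 and -0.14, *Cldn3* between -0.61 and -0.10 and *Cldn23* between -0.56 and -0.13. *Cldn2* depended on the group. It had -0.3, -0.44, -0.45 and -1.55 over the differentiated list and -1.31, -1.22, -0.51 and 0.08 over the stem list, where the interval of the highest group held 0 (-0.11 to 0.27). *Tjp1* ran from -0.44 in the lowest to 0.09 in the highest differentiated group.

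Across the 22 groups of cell type and library, the genes most like a member were found by Pearson's r of log2(level + 0.1) among 6873 genes that reach 0.5 per 10000 in a group. The groups share libraries, depth and carried-over RNA, so r is a description. *Cldn7* was most like *Lgals4*, *Krt8* and *S100a14* (r = 0.992, 0.99 and 0.984), which are mRNAs of epithelial cells. *Cldn3* was most like *Gpx2*, *Epcam* and *Ocln* (0.986, 0.984 and 0.983), and *Ocln* like *Cldn3*, *Ehf* and *Gpx2* (0.983, 0.979 and 0.979). *Cldn4* was most like *Foxa1*, *Krt18* and *Smim22* (0.972, 0.966 and 0.962), and *Cldn23* like *Elf3*, *Hoxb13* and *Gpx2* (0.975, 0.97 and 0.968). *Tjp1* had *Plxna2*, *Dnmbp* and *Efnb2* (0.95, 0.918 and 0.906), none of which is an epithelial marker of the list. *Cldn2* had *Prr15l*, *Krt7* and *Gata6* (0.918, 0.901 and 0.897). Likeness was weaker for the members with few UMIs, which were *Cldn8* (*Rnf32*, *Khdc1a* and *Tstd1*, 0.844 to 0.821), *Cldn15* (*Arrdc2* and *Zfp791*, 0.808 and 0.745) and *Cldn1* (*Gm34084*, *Adpgk* and *Glipr2*, 0.799 to 0.753).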

How the data were processed

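CACs of both genotypes were profiled with 10x Genomics 3′ chemistry, with 1 library per genotype. The submitters' processing notes name Cell Ranger 7.2.0 and mm10. The study's methods state that a cell needed over 200 detected mRNAs and a mitochondrial share below 25%, and that Scrublet was used to remove doublets. The table nevertheless held 2470 and 4130 cells at or above 25%. The authors normalized with Seurat's LogNormalize, so the deposited values are the natural log of 1 plus UMIs per 10000 of the cell. The deposited annotation gave library and cell type, which were used as given.

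Values were turned back into UMIs by dividing by the smallest value of each cell, with a largest deviation from whole numbers of 1.5e-10. The libraries held 147109016 and 193133086 UMIs. Levels were UMIs summed over cells per 10000, with exact Poisson intervals, exact binomial (Clopper-Pearson) intervals for shares, and exact conditional binomial intervals for ratios, all at 95% and for counting error only. A level of 0 allows up to 3 UMIs. With 1 library per genotype, no p-value was computed. Results were recomputed under other scalings, cell filters and depths. The members and lists were chosen with earlier results of these data known. All members were named. Of other tight junction genes, those highest outside epithelial cells, the 5 highest in epithelial cells and those past 1.2-fold were named, with the 3 genes most like each member. A few genes that met these rules are not reported here. Calculations used Python 3.11.15, NumPy 2.4.6, SciPy 1.17.1, pandas 2.3.3 and matplotlib 3.10.9, after tests on simulated data.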

Additional observations from a re-analysis of the deposited data

Results flagged for a closer look

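*Tjp1* was lower in epithelial cells and higher in mast cells of the library labelled *Mir34a_Mye_KO*, so its library ratio had opposite directions in these types. In mast cells the log2 ratio was 0.27 (0.1 to 0.44, counting error only), from 371 and 1208 UMIs in 732 and 785 cells. In epithelial cells it was -0.13 (-0.16 to -0.09), from 14498 and 12484 UMIs. Each direction rests on 1 library per genotype, and the difference between the cell types was not tested. No median of all genes is given for mast cells, whose median depth was 2951.5 and 8456 UMIs. Whether the higher value is particular to *Tjp1* was therefore not tested. With totals that leave out genes of immunoglobulins, mitochondria and those like ribosomal RNA, the epithelial ratio was 0.19.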

How the results depend on the processing

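No paired analysis was possible because each genotype had 1 library. The count of members lower by at least 1.2-fold was 4 of 7, beside 46.2% of all genes tested. It was 2 of 7 (17.6% of genes) in cells with at least 500 genes and under 10% mitochondrial UMIs, 2 (8.04%) with a pseudocount of 1, 6 (42%) as means over cells, 6 (41.3%) thinned, 3 (44.3% of the 4333 genes left) with the T cell level subtracted, 3 (14.7%) with reduced totals and 6 of 10 members (44%) with no filter on low levels. In epithelial cells under 1% immunoglobulin UMIs, 46.7% of genes were lower by at least 1.2-fold and the median of all genes was -0.24. Of the 7 members, 4 were below this median and 3 above it. The totals reduced by genes of immunoglobulins, mitochondria and those like ribosomal RNA moved every log2 ratio up by 0.32, which by construction took the members below 0 from 10 to 6. With those totals *Cldn3*, *Cldn23* and *Tjp1* were at 0.066, 0.0995 and 0.19 between the libraries, and with the T cell level subtracted *Cldn23* and *Tjp1* were at 0.037 and 0.013. Members with an epithelial level at least 2 times every other went from 4 to 1 as means over cells and to 7 over types of at least 100 cells in the library labelled *Mir34a_F/F*, and from 3 to 1 with thinned cells and to 6 over those types in the other. Along the stem list, members below 0 in the library labelled *Mir34a_Mye_KO* went from 6 to 10 with the cell filter. Reversals between highest and lowest groups of the differentiated list were *Cldn2* (-0.21) and *Cldn4* (0.079) as means over cells and *Cldn2* (-0.37) and *Cldn4* (0.096) thinned, in the library labelled *Mir34a_F/F*, and *Cldn2* in the other (0.11 thinned, 0.66 with the cell filter). Along the stem list they were *Tjp1* in the library labelled *Mir34a_F/F* (-0.014 thinned, -0.027 with the reduced totals) and, in the other, *Cldn2* (-0.14 thinned, -0.25 filtered), *Cldn4* (-0.41 filtered, -0.15 with the reduced totals) and *Tjp1* (0.00034 as means over cells, 0.26 with cells at 0 on the list as the lowest group, chosen after seeing the data). Of all single values, 144 stayed within their counting interval, 144 moved outside it and 19, whose first interval did not hold 0, changed direction. The cause was not tested. Thinning to 1000 UMIs moved the ratio of the highest to the lowest differentiated group of *Cldn8* to 0.5 and 0.42, with 1.25 and 0.76 as means over cells. Counts limit *Cldn1*, *Cldn8* and *Cldn15* most.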
